A study of Homo sapiens with 6 samples.

Results

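The genes described are 10 components of the DNA replication licensing machinery, chosen by their Ensembl identifiers from the 26445 probe sets measured in KIAA1199-inducible SW480 cells. They are the 6 subunits of the ring-shaped MCM helicase (MCM2, MCM3, MCM4, MCM5, MCM6 and MCM7), the ring loaders CDC6 and CDT1, and the helicase activators MCM10 and CDC45. All 10 identifiers were present, and none was lost to a filter. The deposited values carry no gene symbols, so each symbol is the one assigned to its identifier when the genes were chosen.

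SW480 is a human colon cancer cell line. The cells used here, Clone 13, carry both a tetracycline repressor and a KIAA1199 construct that is transcribed only when doxycycline is added, so the results are those of 1 clone. Cells of both groups were kept in 10% Tet-system-approved serum with blasticidin S at 7 µg/ml and G418 at 0.4 mg/ml. Induction was with doxycycline at 50 ng/ml for 48 h according to the sample labels. The labels contradict each other on the uninduced group, because their treatment text gives this exposure for all 6 samples while their titles and induction entries mark 3 samples as uninduced. The groups follow the titles and induction entries, and no value analysed here checks them. There were 3 arrays per group, 1 from each of 3 independent experiments, and the induced and uninduced arrays of an experiment were compared with each other. The level of the KIAA1199 transgene and the markers of colorectal and other cell types were not analysed here, because identifiers other than the 10 could not be paired with symbols. No arm without the construct was among the samples, so an effect of doxycycline and an effect of KIAA1199 cannot be told apart.

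Licensing is the step that prepares origins of replication before S phase. In G1 the origin recognition complex, CDC6 and CDT1 load MCM2 to MCM7 onto DNA as an inactive ring. At the start of S phase CDC45 and the GINS complex join the ring to form the working helicase, with the help of MCM10. The genes are textbook targets of E2F transcription factors, their mRNAs are more abundant in cycling than in quiescent cells, and in the colon MCM proteins mark the proliferating cells of the lower crypt.

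The promoters of the 10 genes were searched for the E2F element. RefSeq promoter windows on GRCh38.p14, 250 bases before to 50 bases after the annotated start, were found for 8 of the 10 genes. MCM4 and MCM5 had no entry. The letters searched, on both strands, were the 4 words of the E2F consensus (TTTCCCGC, TTTCGCGC, TTTGCCGC and TTTGGCGC) and the variant TTTGGCGG, chosen after these promoters had been seen. Below are the 250 bases before the start of MCM7 (chr7:100101398-100101647, minus strand), MCM3 (chr6:52284743-52284992, minus strand), MCM6 (chr2:135876444-135876693, minus strand) and CDC6 (chr17:40287629-40287878, plus strand). MCM7 and MCM3 are shown because their levels were higher with doxycycline in every experiment, MCM6 as the subunit with the smallest difference and CDC6 as the gene that was lower. Capitals mark the matches that lie wholly within the bases shown, so a further consensus match of MCM3, TTTCGCGC beginning 4 bases before the start, and one of CDC6 after the start are not marked.
MCM7: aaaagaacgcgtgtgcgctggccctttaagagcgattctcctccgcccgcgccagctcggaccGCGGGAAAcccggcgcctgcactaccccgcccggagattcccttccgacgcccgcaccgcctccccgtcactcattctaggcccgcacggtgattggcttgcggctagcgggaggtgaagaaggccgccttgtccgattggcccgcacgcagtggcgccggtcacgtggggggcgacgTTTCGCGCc
MCM3: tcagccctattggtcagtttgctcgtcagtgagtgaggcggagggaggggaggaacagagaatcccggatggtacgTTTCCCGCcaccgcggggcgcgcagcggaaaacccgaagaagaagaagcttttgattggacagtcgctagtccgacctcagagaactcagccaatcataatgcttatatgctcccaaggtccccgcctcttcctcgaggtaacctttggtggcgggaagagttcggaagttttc
MCM6: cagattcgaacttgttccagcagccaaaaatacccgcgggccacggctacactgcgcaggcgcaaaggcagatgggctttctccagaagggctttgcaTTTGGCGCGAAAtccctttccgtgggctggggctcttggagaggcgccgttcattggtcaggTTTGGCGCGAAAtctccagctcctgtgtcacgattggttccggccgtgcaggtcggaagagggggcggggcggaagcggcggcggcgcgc
CDC6: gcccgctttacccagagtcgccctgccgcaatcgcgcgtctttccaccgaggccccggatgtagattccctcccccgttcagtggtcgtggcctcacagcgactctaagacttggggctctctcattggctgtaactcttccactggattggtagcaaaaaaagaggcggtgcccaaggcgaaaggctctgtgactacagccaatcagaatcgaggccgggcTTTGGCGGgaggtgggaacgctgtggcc

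The consensus words were found in 6 of the 8 genes, and in 3.99% of the 27305 genes in the promoter table. The variant was found in 4 of the 8, MCM10 and CDC45 having no other match, and in 0.809% of all genes. Because the variant was picked from these same promoters, its count in them is no comparison with the rest. MCM6 carried the words in overlapping pairs, at 152 and 148 and again at 90 and 86 bases before the start, where TTTGGCGC on one strand shares its last bases with TTTCGCGC on the other. In MCM7 a match began 9 bases before the start, in CDC6 the variant began 28 bases before it, in CDC45 25 bases and in CDT1 27 bases before it. MCM7 and CDC45 have 3 windows each, for different annotated starts, and only the first-listed window of each holds an E2F-type match, so that by window the consensus words were in 6 of 12, against 3.31% of all 35116 windows. The CCAAT box, the letters bound by NF-Y, was present in 6 of the 8 genes, MCM2 and CDT1 being the exceptions, and in 39.7% of all genes. MCM6, with 4 consensus matches, and MCM7, with 2, hold the same kind of letters. A match is only a description of the sequence and not a sign that a factor was bound.

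**Figure D1:**
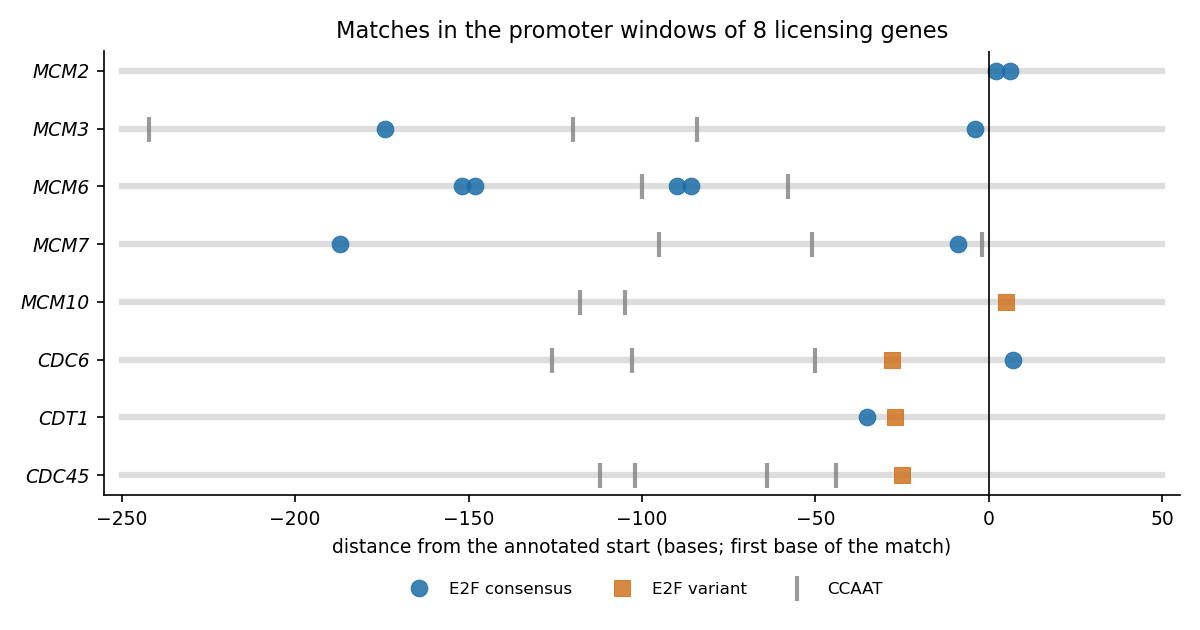
Position of each match (first base, in bases from the annotated start, negative before it) in the first-listed promoter window of 8 licensing genes, with E2F consensus words as circles, the variant as squares and CCAAT as bars. Every gene has a circle or a square, but the variant was chosen after these promoters had been seen. MCM10 and CDC45 have no circle, and the 4 circles of MCM6 fall in overlapping pairs.

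Across the licensing genes, differences between doxycycline and uninduced cells were small and none passed the test. The largest was that of MCM4, 1.16-fold higher with doxycycline, followed by MCM2 and MCM7, both 1.14-fold higher. CDC6 was the only gene with a lower mean, at 0.95-fold. At the limits used in the study's methods, an unadjusted p under 0.025 with a change of at least 1.2-fold, 0 of the 10 genes were called, where 5.83% of all probe sets were (1543 of 26445, 2.9% higher and 2.94% lower). No gene reached 1.2-fold in either direction, which 7.43% of the probe sets did upwards and 7.87% downwards. No licensing gene (0 of 10) and no probe set (0 of 26445, 0%) had an adjusted p under 0.05 in limma, while at an unadjusted p under 0.05 there were 2 licensing genes (MCM4 and MCM7) and 12.3% of all probe sets. With experiment 1, 2 or 3 left out this count of licensing genes was 0, against 9.92%, 8.01% and 8% of all probe sets. Every licensing gene lay above the array median of 5.66, so dim probe sets lower these shares. Without the dimmest 25% of probe sets, the same 2 genes had an unadjusted p under 0.05 in limma, against 15.7% of those kept. At the methods' limits it was then 0 of the 10 genes against 6.92%. The methods' t-test, paired and 2-sided, called 0 of the 10 genes and 2.18% of all probe sets at the methods' limits and 0 at the adjusted limit, and at an unadjusted p under 0.05 it gave 0 of the 10 genes against 10.4% of all probe sets.

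**Figure D2:**
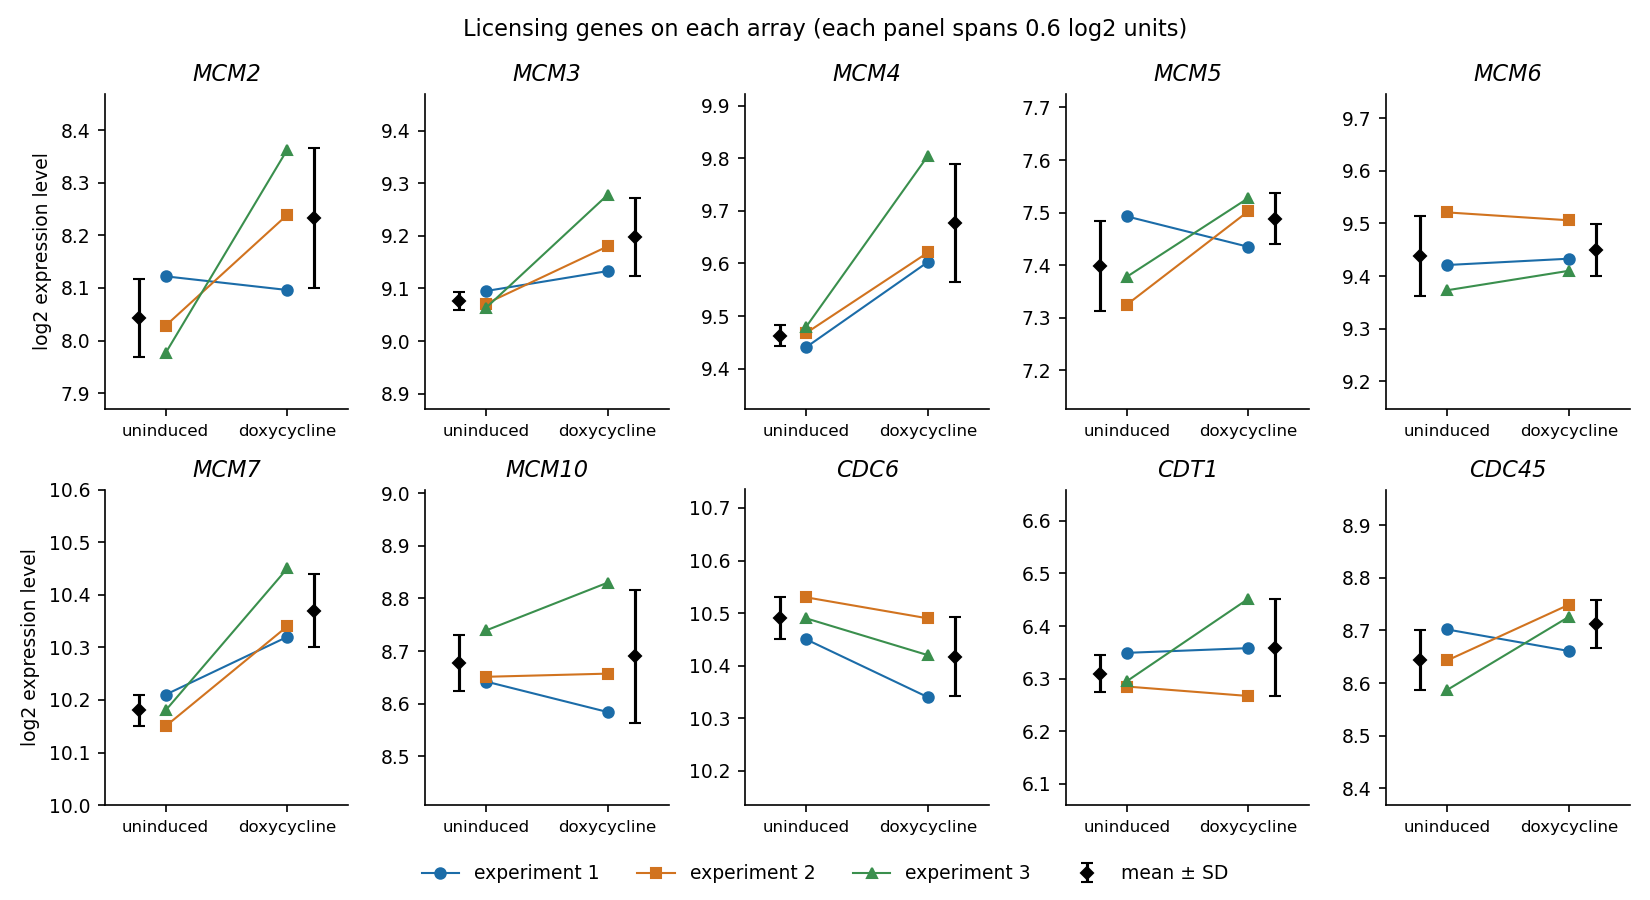
Log2 expression level (y axis) of each licensing gene on the 6 arrays, with a line joining the uninduced and doxycycline arrays of an experiment and diamonds for the mean ± SD of 3 arrays. Each panel spans 0.6 log2 units. MCM3, MCM4 and MCM7 have all 3 doxycycline arrays above all 3 uninduced arrays, and in the other 7 genes the groups overlap.

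MCM4 (ENSG00000104738_at) is one of the 3 subunits of the MCM4, MCM6 and MCM7 core that has helicase activity by itself. Its log2 level was 9.44, 9.47 and 9.48 in uninduced cells of experiments 1, 2 and 3, and 9.60, 9.62 and 9.81 with doxycycline. The groups did not overlap, and the doxycycline array of experiment 3 stood above the others. The mean went from 9.46 ± 0.020 (SD, n = 3) to 9.68 ± 0.11 (SD, n = 3), a log2 fold change of 0.21 (standard error 0.072, 95% interval 0.014 to 0.41; limma, adjusted p = 0.39). In absolute size this change exceeded that of 78.0% of all probe sets.

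MCM7 (ENSG00000166508_at), another subunit of that core, had log2 levels of 10.21, 10.15 and 10.18 in uninduced cells and of 10.32, 10.34 and 10.45 with doxycycline. Here too the groups did not overlap, and the 3 differences, 0.11, 0.19 and 0.27, had the same sign. The log2 fold change was 0.19 (standard error 0.068, 95% interval 0.000735 to 0.38; limma, adjusted p = 0.41). MCM3 (ENSG00000112118_at), which neighbours MCM5 in the ring, was at 9.10, 9.07 and 9.06 without and at 9.13, 9.18 and 9.28 with doxycycline. Its uninduced arrays lay within 0.032 of each other and below every doxycycline array, but its log2 fold change of 0.12 had a 95% interval of -0.074 to 0.32 (limma, adjusted p = 0.56) and was 0.0735 without experiment 3. MCM3, MCM4 and MCM7 were the 3 licensing genes whose groups were apart with doxycycline higher, a pattern seen in 8.64% of all probe sets. They were also the 3 that were higher in every experiment, as 18.9% of all probe sets were. None (0 of 10) was apart with doxycycline lower, against 7.93%. For each of the 3, the exact sign-flip permutation test over the 3 differences gave p = 0.25, 2-sided, which is the smallest p that 3 pairs allow, so this test cannot pass 0.05 here.

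MCM2 (ENSG00000073111_at), a subunit that also binds histones and is widely used as a proliferation marker, had the second largest mean difference and the least even one. Its log2 level was 8.12, 8.03 and 7.98 in uninduced cells and 8.10, 8.24 and 8.36 with doxycycline. The groups overlapped, because in experiment 1 the induced array was 0.026 below the uninduced one, while in experiments 2 and 3 it was 0.21 and 0.39 above. The SD of the 3 differences was 0.21, against a median of 0.14 over all probe sets. The log2 fold change of 0.19 had a 95% interval of -0.097 to 0.48 (limma, adjusted p = 0.53). Without experiment 3 this fold change was 0.0925, and without experiment 1 it was 0.30.

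MCM5 (ENSG00000100297_at), which with MCM2 forms the gate through which the ring closes on DNA, was also lower with doxycycline in experiment 1 and higher in experiments 2 and 3. Its differences were -0.058, 0.18 and 0.15 in the 3 experiments, with log2 levels of 7.49, 7.33 and 7.38 without and 7.44, 7.50 and 7.53 with doxycycline. The groups overlapped and the log2 fold change was 0.09 (standard error 0.080; limma, adjusted p = 0.69). This value was 0.046 without experiment 2 and 0.16 without experiment 1. MCM6 (ENSG00000076003_at), the remaining subunit and part of the helicase core, differed least of all licensing genes. It was at 9.42, 9.52 and 9.37 without and at 9.43, 9.51 and 9.41 with doxycycline, so that its arrays followed the experiment more than the treatment. Its log2 fold change of 0.011 had a 95% interval of -0.16 to 0.18, or 0.897-fold to 1.13-fold.

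Neither loader passed the methods' limits, and the 95% interval of each included 0. CDC6 (ENSG00000094804_at), the ATPase that brings the ring to the origin recognition complex, was at 10.45, 10.53 and 10.49 without and at 10.34, 10.49 and 10.42 with doxycycline. It was lower in all 3 experiments, by 0.11, 0.040 and 0.070, which 17.6% of all probe sets were, yet the groups overlapped, since the highest induced array equalled the median uninduced one. The log2 fold change was -0.073 (standard error 0.062, 95% interval -0.24 to 0.098; limma, adjusted p = 0.68), and -0.035 in the fit with no block and without the doxycycline array of experiment 1. CDT1 (ENSG00000167513_at), the partner that delivers MCM rings and is destroyed in S phase, was at 6.35, 6.29 and 6.30 without and at 6.36, 6.27 and 6.45 with doxycycline. Only the induced array of experiment 3 stood out, 0.16 above its partner, and the log2 fold change of 0.049 was within the spread of the experiments (SD of the differences 0.094; limma, adjusted p = 0.82).

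Of the activators, CDC45 (ENSG00000093009_at), which joins the ring to make it a working helicase, was at 8.70, 8.64 and 8.59 without and at 8.66, 8.75 and 8.73 with doxycycline. It was lower with doxycycline in experiment 1 and higher in experiments 2 and 3, and its log2 fold change of 0.068 had an adjusted p of 0.74 in limma. Without experiment 3 it was 0.0325, and without experiment 1 it was 0.12. MCM10 (ENSG00000065328_at), which despite its name is not part of the ring, was at 8.64, 8.65 and 8.74 without and at 8.58, 8.66 and 8.83 with doxycycline. Its arrays of experiment 3 were the highest of each group, and its log2 fold change was 0.013 (95% interval -0.17 to 0.20; limma, adjusted p = 0.96).

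**Figure D3:**
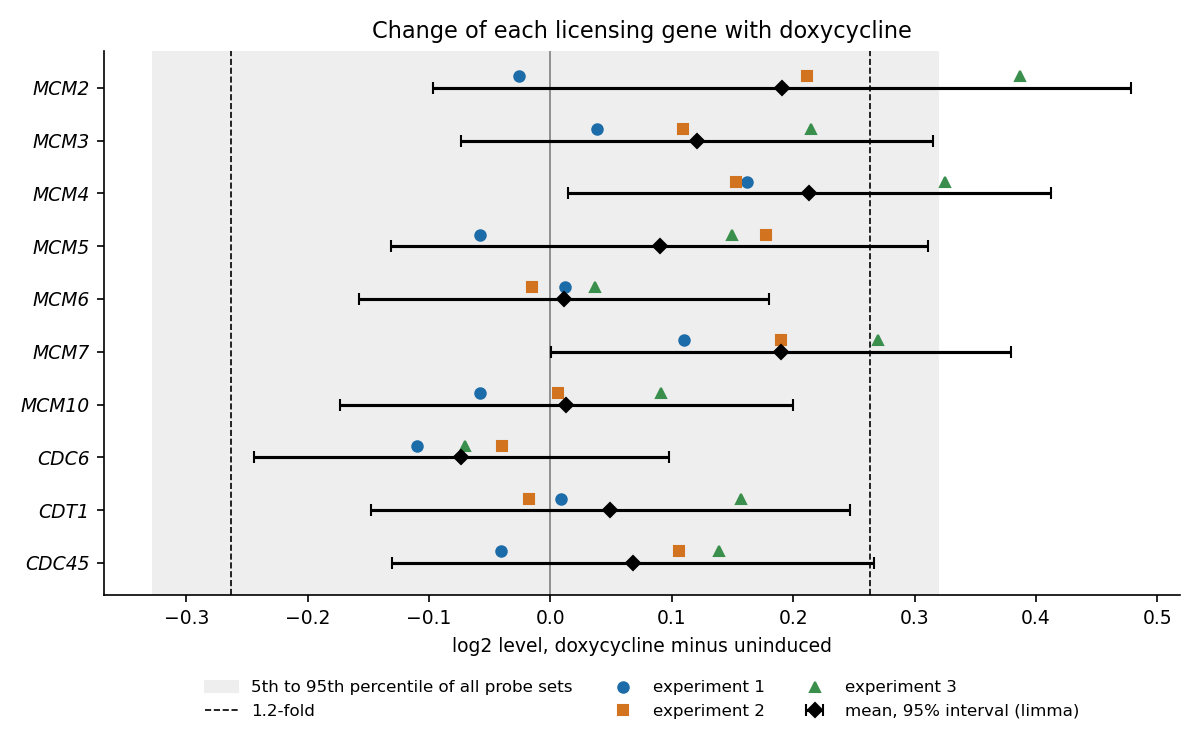
Log2 difference, doxycycline minus uninduced (x axis), of each licensing gene, with diamonds and bars for the mean and its 95% interval from limma and coloured symbols for the 3 experiments. The grey band holds the 5th to 95th percentile of all probe sets, -0.33 to 0.32, and dashed lines mark 1.2-fold. Every mean lies inside the dashed lines, and only the intervals of MCM4 and MCM7 exclude 0.

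As a list, 9 of the 10 genes had a mean above 0, where 50.5% of all probe sets did. Without experiment 3 it was 6 of the 10 and 50.1%. The median log2 fold change of the 10 genes was 0.079 against 0.0017 over all probe sets. This median of the 10 genes was 0.046 without experiment 3 and 0.14 without experiment 1. These values are a description, because the 10 genes are not replicates of the condition and share the same 6 arrays. The median absolute change was 0.082 in the 10 genes and 0.10 over all probe sets, and the median SD of the 3 differences was 0.092 and 0.14. The 6 ring subunits had a median of 0.16 and the other 4 genes a median of 0.031. The precision bounds what could have been missed: the 95% intervals of the 10 genes together ran from 0.844-fold to 1.39-fold, without adjustment for the number of probe sets tested. In a bulk culture, a different share of cells in the phase in which a gene is transcribed and a different amount of its mRNA per cell cannot be told apart.

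The experiments contributed unequally to this. In experiment 1 the median difference of the 10 genes was -0.0085, with 5 higher and 5 lower. In experiment 2 it was 0.11 with 7 higher, and in experiment 3 it was 0.15 with 9 higher, all except CDC6. Over all probe sets the medians were -0.0040, 0.0060 and 0.0070, but quantile normalization holds these near 0 and they are no measure of a displacement of whole arrays. Averaged over the 10 genes, each centred on its own mean, the induced arrays stood at -0.019, 0.040 and 0.11 and the uninduced ones at -0.023, -0.048 and -0.059. The induced array of experiment 1 was therefore almost level with its uninduced partner, while that of experiment 3 was the highest of the 6.

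**Figure D4:**
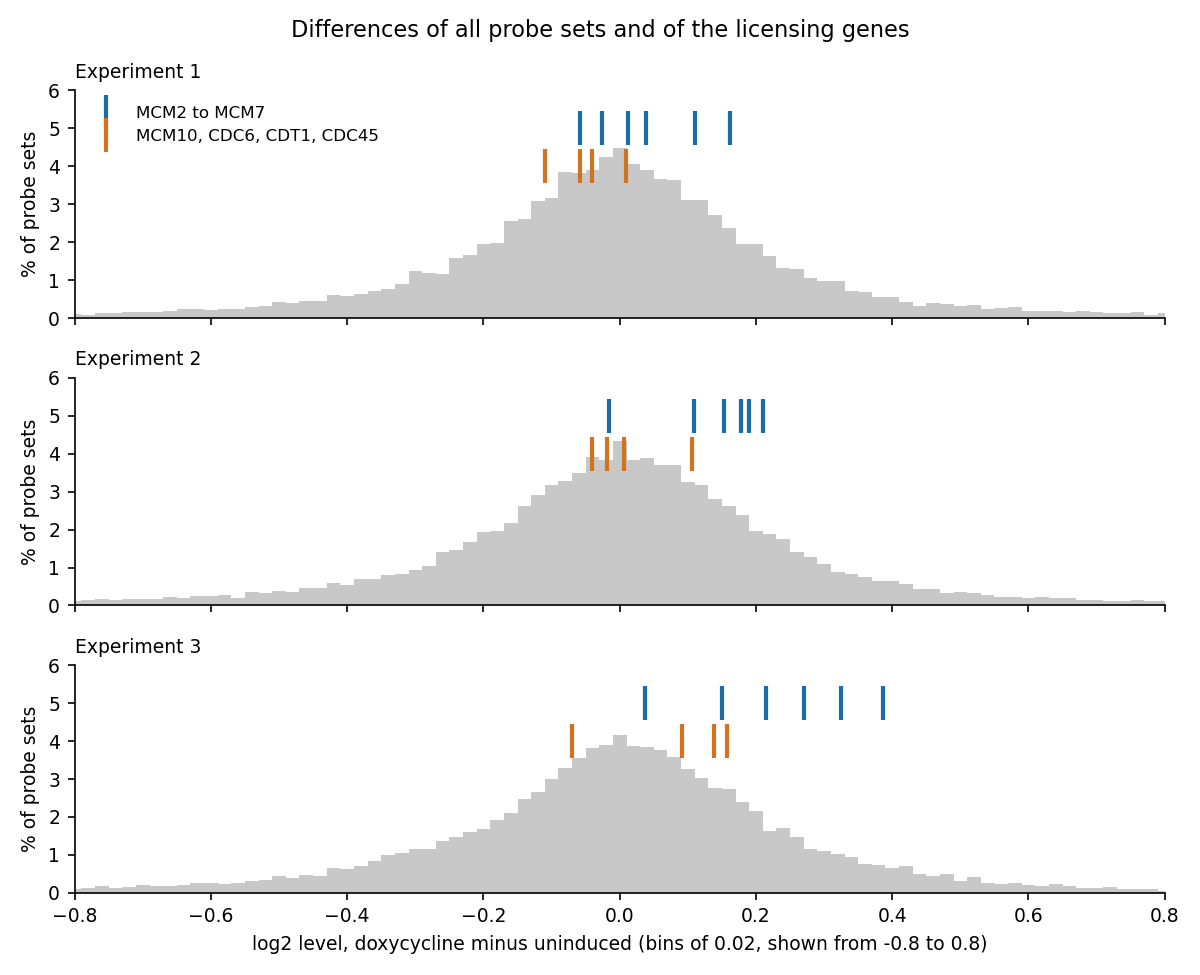
Share of all probe sets (y axis, %) by log2 difference, doxycycline minus uninduced (x axis), in each experiment, in grey, with a blue tick for each ring subunit and an orange tick for each of MCM10, CDC6, CDT1 and CDC45. The blue ticks have medians of 0.025, 0.17 and 0.24 in experiments 1, 2 and 3. The grey distributions are centred near 0 because the arrays were quantile normalized.

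Since the 6 subunits enter the ring in equal numbers, each was also set against the mean difference of all 6 in the same experiment, which was 0.040, 0.14 and 0.23. MCM7 lay above it by 0.070, 0.052 and 0.039, MCM4 by 0.12, 0.015 and 0.094, and MCM6 below it by 0.028, 0.15 and 0.19. MCM3 followed the mean most closely, with an average deviation of -0.015 ± 0.014 (SD, n = 3). Between single subunits, 7 of the 15 pairs kept the sign of their difference in all 3 experiments. This count is a description, since the pairs share 6 subunits and are not independent, and 36.5% of all probe sets taken singly kept the sign of their own difference. The widest of these on average was MCM4 over MCM6, by 0.15, 0.17 and 0.29, followed by MCM7 over MCM6, by 0.098, 0.21 and 0.23. With 3 experiments the exact sign-flip permutation test gives no p below 0.25 for any pair, so this test cannot pass 0.05 here, and no model was fitted to the differences between subunits.

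**Figure D5:**
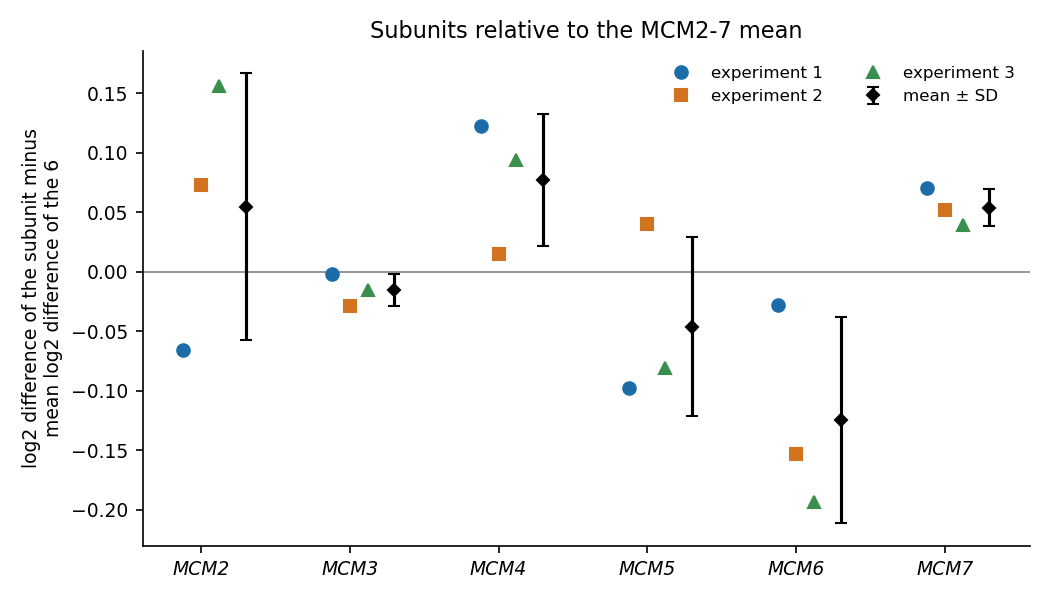
Log2 difference of each ring subunit minus the mean log2 difference of the 6 subunits in the same experiment (y axis), with a symbol for each experiment and a diamond for the mean ± SD of the 3. MCM4 and MCM7 lie above 0 and MCM3 and MCM6 below 0 in every experiment, whereas MCM2 and MCM5 change side.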

How the data were processed

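Total RNA of 6 cultures was measured on Affymetrix human exon arrays. Values were deposited as log2 expression levels, 1 per Ensembl gene identifier and array. The submitters' processing notes name RMA, and all 6 arrays have a median of 5.66 and differ by at most 0.024 at the same rank, so quantile normalization was part of it. Background settings and the annotation version are not given in the sources used here. No detection calls were used, and depth does not apply to arrays, so 3 arrays per group limit the precision.

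Each of the 26445 probe sets was tested 2-sided with limma version 3.58.1 (lmFit, eBayes) in R version 4.3.3, with the experiment as a block as in the paired test of the methods, and Benjamini-Hochberg adjustment covered all of them. The fit was tested on simulated data. The methods' t-test gave a p of 1 to the 1 probe set with equal values on all arrays. Alternatives left out the block, changed the variance prior (trend or robust), added a quantile normalization, a median centring or the removal of the level trend (lowess, span 0.3), left out the dimmest 25% of probe sets, changed the fold minimum, or left out experiments or arrays. The members and lists were chosen with earlier results of these data known. All 10 members are named. The 113 genes of the pathway and marker lists, the genes nearest in profile included, were not analysed, because the RefSeq table used pairs 0 of its rows with an Ensembl identifier.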

Additional observations from a re-analysis of the deposited data

How the results depend on the processing

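No licensing gene passed the methods' limits, higher or lower (0 of 10), with the block or in any of 19 alternatives for this count. As every licensing gene was under 1.2-fold, alternatives that keep the fold changes (no block, trend, robust, t-test, dim filter), barely move them (quantile, median centring) or raise the minimum could not add a call. The adjusted limit was passed by 0 licensing genes and 0 of all probe sets throughout. The 2 licensing genes with unadjusted p under 0.05 became 1 (MCM4) with the robust prior (11.9% of all probe sets) or level trend removed (12.2%). With 1 array left out there were 0 to 3 (5.6% to 10.8%). With the trend prior (14.6%) both were under 0.025 and missed only the fold minimum. The count over all probe sets, 1543, was 1050 with no replicate block, 577 with the methods' t-test and 238 with a fold change minimum of 1.5. With 1 experiment left out it was 986 (experiment 3), 994 (experiment 2) or 1344. With 5 arrays and no block (1050 with all 6) it was 696 to 1361, over 1.5 times from 1050 only without uninduced 2 (696). It was 993 without uninduced 1, 997 without doxycycline 1 and 770 without doxycycline 3. A higher fold minimum can only lower the count, and the cause of the other changes was not tested.

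The median log2 fold change of the licensing genes, 0.079, was 0.046 without experiment 3 and 0.14 without experiment 1. With an experiment or array left out, MCM2, MCM3, MCM4, MCM5, MCM7, CDC6 and CDC45 kept their direction. All but MCM4 and MCM7 moved by over 1.5 times, MCM2 from 0.0925 (without experiment 3) to 0.30 (without experiment 1) and MCM5 from 0.046 (without experiment 2) to 0.16 (without experiment 1). Smaller differences changed sign. MCM6 was between -0.0015 (without experiment 3) and 0.025 with an experiment left out and, with no block, -0.017 without doxycycline 2 and -0.021 without uninduced 3, the highest being 0.053. MCM10 was between -0.026 (without experiment 3) and 0.049 and, with no block, -0.0047 without uninduced 1, -0.00017 without uninduced 2 and -0.057 without doxycycline 3, the highest being 0.066. CDT1 was between -0.0045 (without experiment 3) and 0.083 and, with no block, between 0.0028 and 0.095. The block changed no call of a licensing gene. Deviations of same-numbered arrays from their group means had an r of 0.039, 0.049 and 0.13 over all probe sets, against -0.092 to 0.044 for different numbers, and the block rests on the methods' paired test. The alternatives planned for the pathway lists were not run.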
